A study of Mus musculus with 24 samples.

Results

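The 10 genes of the unfolded protein response examined in mouse liver were Hspa5, Hsp90b1, Creld2, Sdf2l1, Dnajb9, Dnajb11, Dnajc3, Xbp1, Pdia4 and Herpud1. They were chosen by name as chaperones of the endoplasmic reticulum (ER) and targets of the factors ATF6 or XBP1, and each was read from the probe set that the platform annotation pairs with that gene alone, taking the probe set with the highest mean where there were more. All 10 had a probe set, out of 19938 genes measured, and no filter on level was applied. Earlier results from these data were known when these genes and the further gene lists were chosen. Their shares of calls, set against those of all genes, are therefore a description and no independent result. On fish oil, germ-free livers held more Creld2, Sdf2l1, Dnajb9 and Hspa5 RNA than germ-free livers on lard, which made 4 of 10 genes higher by limma's test against 4.58% of all genes. In conventional mice 0 of 10 passed that test for diet, against 0.206% of all genes higher and 0.602% lower.

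Livers came from male C57Bl/6 mice, given as wild type, and their RNA was hybridised to Affymetrix MoGene 1.0 ST arrays, 1 for each of 24 labelled mice. A probe set, the unit of the array, is a group of short probes summarised as 1 value. The 4 groups of 6 were conventional mice fed lard, conventional mice fed menhaden fish oil, germ-free mice (raised without microbes) fed lard and germ-free mice fed fish oil. Every group had 45% of its energy as fat for 11 weeks and was fasted for 4 hours before the liver was taken, so no group shows a low-fat or fed state. The labels give an age of 11 weeks and the study text gives the same age in describing the feeding, so the age at sampling is uncertain. The labels do not give the source colony or housing of the germ-free and conventional mice. In the fish oil germ-free group, mice 3 and 4 were closer to each other than any other 2 mice of a group (the SD of their difference was 0.123 over the 300 most variable genes, against 0.349 for the next closest pair). They were counted as 1 sample, so n = 5 there. Levels are log2 RMA signals, on which a difference of 1 is a doubling of signal, and they set no gene against another because each probe set has its own brightness. The number of mice limits the precision.

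Proteins that are secreted or placed in membranes fold in the ER, and hepatocytes, which secrete most plasma proteins, hold a great deal of it. When unfolded proteins gather there, the sensors IRE1, ATF6 and PERK are activated. IRE1 splices Xbp1 RNA so that it encodes an active factor, ATF6 is cut to release another, and together they raise chaperones, folding enzymes and the machinery that removes misfolded proteins, while PERK slows translation and favours ATF4 and its targets.

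ATF6 and XBP1 act through short promoter elements, shown here because several of the 10 genes share them. The genes were chosen as targets of these factors, so their presence is a description and no independent result. The window searched ran from 250 bases before to 50 after each RefSeq transcription start on GRCm38.p6, and all 10 genes had 1 window. The ER stress response element (ERSE: CCAAT, a spacer of 9 bases of any kind, then CCACG, on either strand) lay in the windows of 4 of the 10 genes and in 39 of 32851 windows (0.119%). The second form (ERSE-II: ATTGG, 1 base of any kind, then CCACG, on either strand) lay in 2 of the 10 and in 12 windows (0.0365%). Among 68 other genes of the response that had a window, counted as genes, 6 held an ERSE (Calr, Canx, Derl3, Ero1b, Pdia6 and Syvn1) and 0 an ERSE-II. The full windows of 4 genes follow, 5′ to 3′ along the gene, in lower case with the matched ends of the motif in capitals. Hspa5 and Creld2 are shown because they rose with diet, Herpud1 because it rose with germ-free status on fish oil, and Hsp90b1 because it holds 2 ERSE matches and passed no test. Hspa5 is at chr2:34771840-34772139 (+ strand), Hsp90b1 at chr10:86705395-86705694 (- strand), Creld2 at chr15:88819396-88819695 (+ strand) and Herpud1 at chr8:94386179-94386478 (+ strand).
Hspa5: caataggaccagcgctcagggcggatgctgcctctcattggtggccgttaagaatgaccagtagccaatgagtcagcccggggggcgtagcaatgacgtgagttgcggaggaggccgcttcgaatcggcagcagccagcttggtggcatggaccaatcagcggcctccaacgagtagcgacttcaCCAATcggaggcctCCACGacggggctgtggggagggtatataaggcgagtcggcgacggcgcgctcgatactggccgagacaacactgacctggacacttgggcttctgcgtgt
Hsp90b1: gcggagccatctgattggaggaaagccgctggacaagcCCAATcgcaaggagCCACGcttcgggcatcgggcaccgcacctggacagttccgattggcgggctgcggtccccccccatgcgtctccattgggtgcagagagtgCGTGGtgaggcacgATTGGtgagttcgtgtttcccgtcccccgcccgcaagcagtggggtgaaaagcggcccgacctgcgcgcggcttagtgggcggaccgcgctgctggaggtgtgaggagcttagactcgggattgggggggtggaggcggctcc
Creld2: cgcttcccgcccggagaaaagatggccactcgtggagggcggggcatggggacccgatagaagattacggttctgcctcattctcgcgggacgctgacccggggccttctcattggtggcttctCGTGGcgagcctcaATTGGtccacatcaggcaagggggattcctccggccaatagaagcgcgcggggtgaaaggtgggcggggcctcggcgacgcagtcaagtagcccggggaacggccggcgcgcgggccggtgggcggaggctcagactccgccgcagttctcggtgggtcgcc
Herpud1: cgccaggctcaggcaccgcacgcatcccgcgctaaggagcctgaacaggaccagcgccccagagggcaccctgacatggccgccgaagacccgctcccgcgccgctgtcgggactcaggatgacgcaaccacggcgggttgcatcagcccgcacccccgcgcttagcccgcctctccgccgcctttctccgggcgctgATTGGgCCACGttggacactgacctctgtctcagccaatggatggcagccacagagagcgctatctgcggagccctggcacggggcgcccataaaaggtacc

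The ERSE of Hspa5 lay 65 to 47 bases before the start. Hsp90b1 held 1 on the gene's strand 212 to 194 bases before the start and 1 on the other strand at 107 to 89, and that of Creld2 lay on the other strand at 126 to 108. Dnajc3 had an ERSE 105 to 87 bases before its start, and the ERSE-II matches lay 52 to 42 bases before the start in Herpud1 and at bases 8 to 18 after it in Dnajb11. These sites are printed together to show how the spacer between the capitals differs, the strand being that of the gene.
Dnajc3: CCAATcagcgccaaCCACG
Hspa5: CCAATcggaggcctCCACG
Hsp90b1, first: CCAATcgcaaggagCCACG
Hsp90b1, second: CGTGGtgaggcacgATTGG
Creld2: CGTGGcgagcctcaATTGG
Dnajb11: ATTGGcCCACG
Herpud1: ATTGGgCCACG
The windows of Sdf2l1, Dnajb9, Xbp1 and Pdia4 held neither form. The 5-base core CCACG, which is part of both forms, lay in 9 of the 10 windows, all but that of Xbp1, and in 32.8% of all windows. The XBP1-type element TGACGTGG lay in 0 of the 10 windows and in 0.676% of all. A match describes the letters only. Genes with and without an ERSE or ERSE-II were both found among those that passed a test: Hspa5, Creld2 and Herpud1 had a match, Sdf2l1 and Dnajb9 had not.

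**Figure D1:**
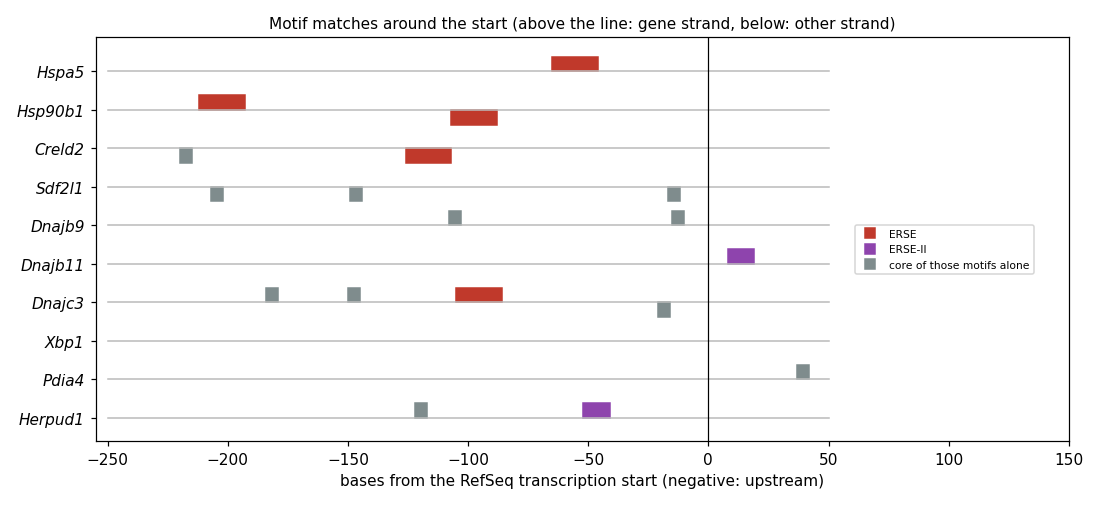
Positions of ERSE, ERSE-II and core matches in the 300-base windows of the 10 genes; the horizontal axis is the distance in bases from the RefSeq transcription start. Blocks above a line lie on the gene's strand and blocks below on the other; 6 of the 10 genes hold an ERSE or ERSE-II, and Xbp1 holds no match of any kind.

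Among the lumenal chaperones, Hspa5 encodes BiP, the ER member of the Hsp70 family, which binds nascent chains and also holds the sensors inactive. In the fish oil germ-free livers Hspa5 was at 12.92, 12.84, 13.27, 12.87 and 13.24, and in the lard germ-free livers at 12.47 to 12.91 with a median of 12.52. The groups overlapped through mouse 6 on lard, the only one of its group above 12.67, while 3 of 5 fish oil livers lay above every lard liver. Hspa5 was 1.35-fold higher on fish oil (log2 difference 0.43 ± 0.12 SE, adjusted p = 0.0147, limma). That call was lost with a clock covariate (0.37, adjusted p = 0.0812), without fish oil germ-free mice 3 and 4 (0.37, adjusted p = 0.0524) and without mouse 6 of that group (0.38, adjusted p = 0.0527). In conventional livers Hspa5 ran from 12.53 to 12.75 on lard (median 12.65) and from 12.44 to 13.18 on fish oil (median 12.75), so fish oil livers lay on both sides of the lard range, and the difference was 0.14 ± 0.11 (adjusted p = 0.546). In these bulk samples, a change in the share of a cell type and a change in RNA per cell cannot be told apart, here or for any gene below.

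Hsp90b1 encodes GRP94, the ER form of Hsp90, and it passed no test. It ran from 12.60 to 12.82 in lard conventional (median 12.64), 12.46 to 12.98 in fish oil conventional (median 12.74) and 12.58 to 12.82 in lard germ-free livers (median 12.66), and was at 12.80, 12.62, 12.98, 12.73 and 13.05 in the fish oil germ-free livers. The 4 ranges overlapped, and the diet difference was 0.15 ± 0.09 in germ-free (adjusted p = 0.274) and 0.07 ± 0.08 in conventional mice (adjusted p = 0.673).

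The co-chaperones that serve BiP are described next. Dnajb9 encodes ERdj4, a J-domain protein of the ER. It was at 11.82, 11.73, 12.50, 11.73 and 12.07 in the fish oil germ-free livers, and ran from 10.99 to 11.85 in lard germ-free (median 11.29), 10.84 to 11.76 in fish oil conventional (median 11.08) and 10.97 to 11.35 in lard conventional livers (median 11.09). All 5 fish oil germ-free livers lay above all other livers except lard mouse 6 of the germ-free mice (11.85) and fish oil mouse 6 of the conventional mice (11.76), which each lay above some of them. Dnajb9 was 1.56-fold higher on fish oil than on lard in germ-free mice (0.64 ± 0.15, adjusted p = 0.00629). It was 1.78-fold higher in germ-free than conventional mice on fish oil (0.83 ± 0.15, adjusted p = 0.00191), and 1.14-fold on lard, where it did not pass (0.20 ± 0.15, adjusted p = 0.711).

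Sdf2l1 encodes a small ER protein that works with the J-domain protein ERdj3. It was at 10.65, 10.80, 11.09, 11.08 and 11.39 in the fish oil germ-free livers and ran from 9.72 to 10.77 in the lard germ-free livers (median 10.09). Of the 5 fish oil livers, 4 lay above every lard liver, and only lard mouse 6 (10.77) reached into their range. Sdf2l1 was 1.80-fold higher on fish oil (0.85 ± 0.17, adjusted p = 0.00173). In conventional livers it ran from 10.56 to 11.17 on lard (median 10.86) and from 10.43 to 11.20 on fish oil (median 10.82), a difference of -0.06 ± 0.16 (adjusted p = 0.883). On lard, 5 of 6 germ-free livers lay below every conventional liver, and Sdf2l1 was 1.63-fold lower in germ-free mice (-0.70 ± 0.16, adjusted p = 0.0244). This call was lost when certain single mice were left out, although the difference stayed at -0.69 to -0.62. Adjusted p was 0.0812 without lard conventional mouse 2 and 0.0586 without mouse 3. It was 0.0521, 0.0515, 0.0795 and 0.0655 without lard germ-free mouse 1, 3, 4 or 5 in turn. With the clock covariate the difference was -0.59 (adjusted p = 0.0575). On fish oil the germ-free to conventional difference was 0.20 ± 0.17 (adjusted p = 0.567).

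Dnajb11, which encodes ERdj3, and Dnajc3, which encodes the J-domain protein p58IPK, passed no test. Dnajb11 was at 9.72, 9.71, 10.18, 9.83 and 10.21 in fish oil germ-free livers, against 9.40 to 9.89 in lard germ-free livers (median 9.64), and 2 of 5 lay above the lard range. Its diet difference was 0.26 ± 0.14 in germ-free (adjusted p = 0.27) and -0.09 ± 0.13 in conventional mice (adjusted p = 0.772). Dnajc3 was at 11.54, 11.38, 11.78, 11.61 and 11.73 in fish oil germ-free livers, against 11.28 to 11.52 in lard germ-free livers (median 11.45), with 4 of 5 above the lard range. Its differences were 0.18 ± 0.09 (adjusted p = 0.194) and -0.04 ± 0.08 (adjusted p = 0.842). Dnajc3 had 2 probe sets with identical values in every liver.

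Creld2, which encodes an ER-resident protein induced when folding is disturbed, showed the largest diet difference of the 10 genes in germ-free mice. It was at 11.18, 11.06, 12.25, 11.13 and 12.04 in the fish oil germ-free livers, and ran from 9.92 to 11.30 in the lard germ-free livers (median 10.07). Mice 3 and 4 (as 1 sample) and mouse 6 stood about 1 log2 unit above the other 3 fish oil livers, and lard mouse 6 (11.30) stood above the rest of its group, which ended at 10.59. Creld2 was 2.30-fold higher on fish oil in germ-free mice (1.20 ± 0.28, adjusted p = 0.00491). Conventional livers ran from 10.06 to 10.64 on lard (median 10.32) and from 9.90 to 11.42 on fish oil (median 10.34), a difference of 0.25 ± 0.27 (adjusted p = 0.663) that was -0.16 (adjusted p = 0.806) without fish oil conventional mice 5 and 6. On fish oil Creld2 was 1.94-fold higher in germ-free than conventional mice (0.96 ± 0.28, adjusted p = 0.0368). That call was present in 27 of 37 alternatives, in which the adjusted p ran from 0.00131 to 0.134. It was lost without fish oil conventional mouse 1, 2, 3 or 4, without fish oil germ-free mice 3 and 4 or mouse 6, and without germ-free mice 5 and 6 (differences of 0.78 to 0.92). It was also lost with a second quantile normalization, with a trended and robust variance, and with only those 2 groups in the fit (0.93 to 0.96). On lard the status difference was 0.00 ± 0.27 (adjusted p = 0.999).

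Pdia4 encodes ERp72, a protein disulfide isomerase, and had 2 probe sets that gave different results. The probe set used for the gene was at 12.60, 12.51, 12.74, 12.57 and 12.88 in fish oil germ-free livers, against 12.40 to 12.64 in lard germ-free (median 12.46), 12.41 to 12.74 in fish oil conventional (median 12.59) and 12.51 to 12.68 in lard conventional livers (median 12.57). The groups overlapped, and the diet difference in germ-free mice was 0.17 ± 0.07 (adjusted p = 0.122), past the threshold only with equal array medians (0.24, adjusted p = 0.0278) or with the mean of both probe sets (0.67, adjusted p = 1.3e-05). That mean was also called for germ-free status on fish oil (0.45, adjusted p = 0.00135) and for the difference between the diet effects (0.61, adjusted p = 0.0168), where the probe set used gave 0.10 ± 0.07 (adjusted p = 0.483) and 0.19 ± 0.10 (adjusted p = 0.454). The second probe set, which the platform annotation pairs with Pdia4 alone through a predicted transcript, was at 9.33, 8.98, 8.89, 8.93 and 9.38 in fish oil germ-free livers, against 7.66 to 8.10 in lard germ-free, 8.01 to 8.58 in fish oil conventional and 7.94 to 8.35 in lard conventional livers. All 5 fish oil germ-free livers lay above all other livers on that probe set. The share of all probe sets that separate this group in the same way was not counted. Fitted with each of 21789 single-symbol probe sets on its own, where 4.50% were called higher for diet in germ-free mice, it was 2.25-fold higher (1.17 ± 0.11, adjusted p = 1.11e-06). It was 1.75-fold higher in germ-free than conventional mice on fish oil (0.81 ± 0.11, adjusted p = 0.000162, against 3.00% called higher), and its diet effects differed (1.03 ± 0.16, adjusted p = 0.0033, against 0.156% called higher). Which transcript the second probe set reads was not tested.

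**Figure D2:**
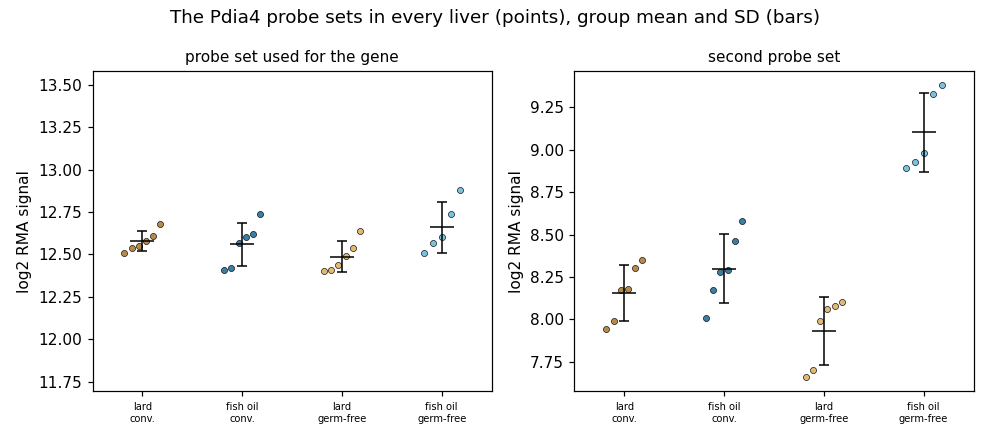
Signal (log2 RMA) of the 2 Pdia4 probe sets in each liver, as points by group, with the group mean and SD as bars; the vertical axes have the same span but different positions. On the left the groups overlap. On the right the 5 fish oil germ-free livers, at 8.89 to 9.38, lie above all others, and the share of all probe sets that do so was not counted.

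Herpud1 encodes a membrane protein of ER-associated degradation, the route that returns misfolded proteins to the cytosol. It was at 12.80, 12.68, 13.08, 12.62 and 13.06 in the fish oil germ-free livers and ran from 11.81 to 12.28 in the fish oil conventional livers (median 12.12), so these groups did not overlap. This held for 1 of the 10 genes, against 1.39% of all genes higher without overlap in that comparison. Herpud1 was 1.68-fold higher in germ-free mice on fish oil (0.75 ± 0.13, adjusted p = 0.00121), and adjusted p stayed between 0.000253 and 0.00541 in the 37 alternatives. On lard it ran from 12.21 to 12.90 in conventional (median 12.39) and 12.32 to 13.02 in germ-free livers (median 12.56), a difference of 0.11 ± 0.12 (adjusted p = 0.845). In conventional mice 4 of 6 fish oil livers lay below every lard liver, and the diet difference was -0.39 ± 0.12, which did not pass (adjusted p = 0.111). In germ-free mice the diet difference was 0.24 ± 0.13 (adjusted p = 0.255).

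Xbp1 encodes the transcription factor that IRE1 activates by splicing. Its single value covers spliced and unspliced RNA together. It ran from 12.05 to 12.71 in lard conventional (median 12.40), 12.44 to 12.73 in fish oil conventional (median 12.57) and 12.06 to 12.25 in lard germ-free livers (median 12.21), and was at 12.18, 12.21, 12.73, 12.23 and 12.53 in fish oil germ-free livers. On fish oil 3 of 5 germ-free livers lay below every conventional liver, and on lard the groups overlapped. The differences of -0.22 ± 0.10 on lard (adjusted p = 0.325) and -0.21 ± 0.10 on fish oil (adjusted p = 0.239) did not pass. The diet difference was 0.18 ± 0.10 in conventional (adjusted p = 0.353) and 0.19 ± 0.10 in germ-free mice (adjusted p = 0.248).

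**Figure D3:**
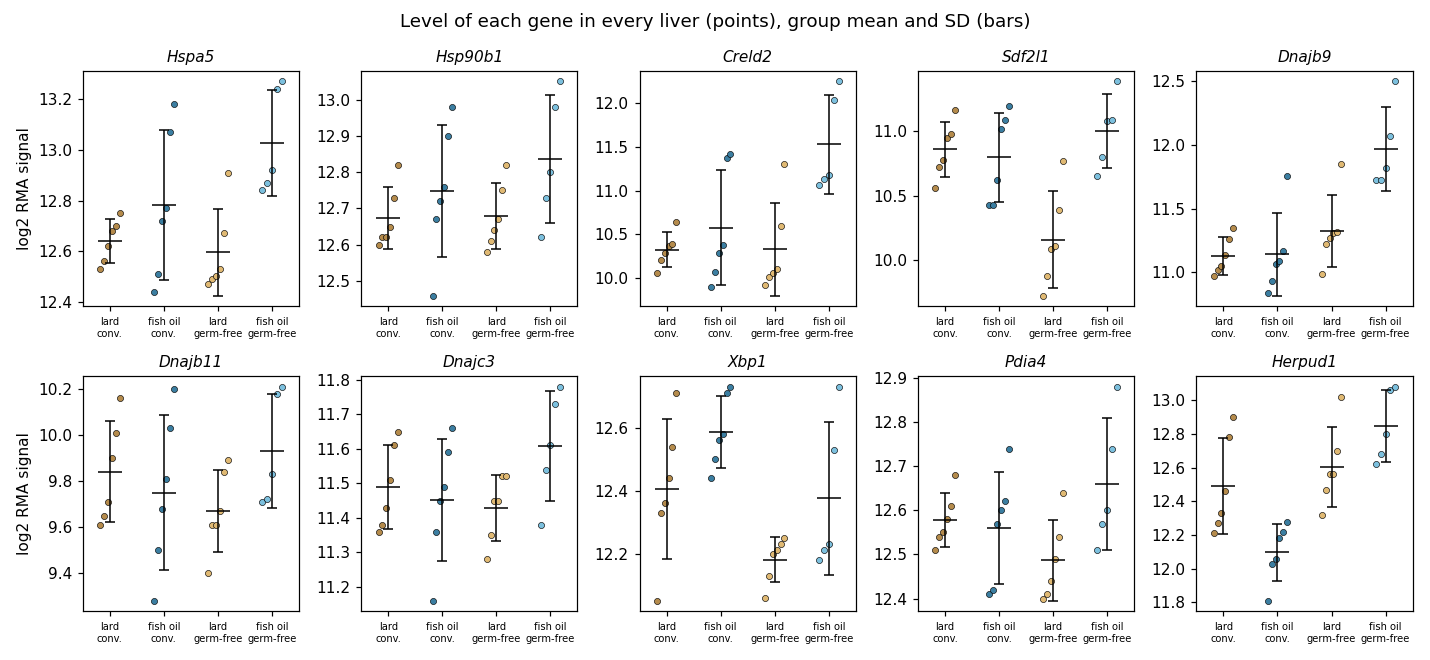
Level (log2 RMA signal) of each of the 10 genes in each liver, as points by group, with the group mean and SD as bars; each panel has its own vertical axis. The fish oil germ-free livers have the highest group mean for every gene except Xbp1, among them Creld2 (values of 11.06 to 12.25) and Dnajb9 (11.73 to 12.50). The fish oil conventional livers have the lowest for Herpud1 (11.81 to 12.28).

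For diet in germ-free mice 4 of the 10 were higher, 0 lower and 6 did not pass, with a median log2 difference of 0.25 and 10 of 10 above 0, while 13.2% of all genes were called in either direction, 4.58% higher and 8.59% lower. The share of calls that were higher over all genes depended on scaling: 913 higher and 1712 lower as deposited became 1726 and 1120 with equal array medians, and 1348 and 1459 with a second quantile normalization. The 4 genes stayed called under both. Counts at an unadjusted p under 0.05, here and below, are given without the share of all genes at that threshold. They therefore show no excess over all genes. In conventional mice 0 of the 10 passed for diet (limma; 1 at an unadjusted p under 0.05, Herpud1), against 0.808% of all genes called in either direction, and 41 higher and 120 lower calls became 57 and 79 with a second quantile normalization. That total of 161 genes rested on single mice: it was 0 without fish oil conventional mouse 2 or lard conventional mouse 3, 5 or 6, 1 without fish oil conventional mouse 6 and 13 without lard conventional mouse 4. It was 28, 83, 384, 339 and 743 without fish oil conventional mouse 5, lard conventional mouse 1, and fish oil conventional mouse 1, 3 and 4 in turn. It was also 0 with the clock covariate and with only those groups in the fit.

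On lard 1 of the 10, Sdf2l1, was lower in germ-free mice and 0 higher, against 0.687% of all genes called lower, 1.13% higher and 1.82% in either direction, and the median of the 10 was -0.05. On fish oil 3 of the 10 (Herpud1, Dnajb9 and Creld2) were higher in germ-free mice and 0 lower, against 3.01% of all genes higher, 3.89% lower and 6.91% in either direction, with a median of 0.19. Over all genes the 601 higher and 776 lower calls there became 1343 and 450 with equal array medians, under which the same 3 genes were called. With the mean of its probe sets Pdia4 made the count 4. Without fish oil conventional mice 5 and 6 it was also 4, with Hspa5 added (0.42, adjusted p = 0.0123), and without germ-free mice 5 and 6 it was 2, Dnajb9 and Herpud1. This comparison and that of diet in germ-free mice share the fish oil germ-free livers, and those 2 comparisons are not independent.

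The difference between the diet effects, germ-free minus conventional, passed for 0 of the 10 genes (limma). Over all genes 0.216% were called higher, 0.391% lower and 0.607% in either direction. At an unadjusted p under 0.05 there were 4 of the 10, all above 0, and the share of all genes at that threshold is not given. The fitted values were 0.91 ± 0.24 for Sdf2l1 (adjusted p = 0.0743), 0.64 ± 0.18 for Herpud1 (adjusted p = 0.0998), 0.63 ± 0.21 for Dnajb9 (adjusted p = 0.181) and 0.95 ± 0.39 for Creld2 (adjusted p = 0.296). So although the 4 calls for diet were in germ-free mice, the diet effect was not shown to differ by status for any of the 10 as fitted. Sdf2l1, Dnajb9 and Creld2 passed without fish oil conventional mice 5 and 6 (1.08, 0.77 and 1.37, adjusted p = 0.0214, 0.0402 and 0.0318). Sdf2l1 and Herpud1 passed without lard germ-free mouse 6 (1.03 and 0.72, adjusted p = 0.0208 and 0.0364), and Dnajb9 without fish oil conventional mouse 6 alone (0.76, adjusted p = 0.0495). Over all genes 43 higher and 78 lower calls became 127 and 39 with equal array medians.

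**Figure D4:**
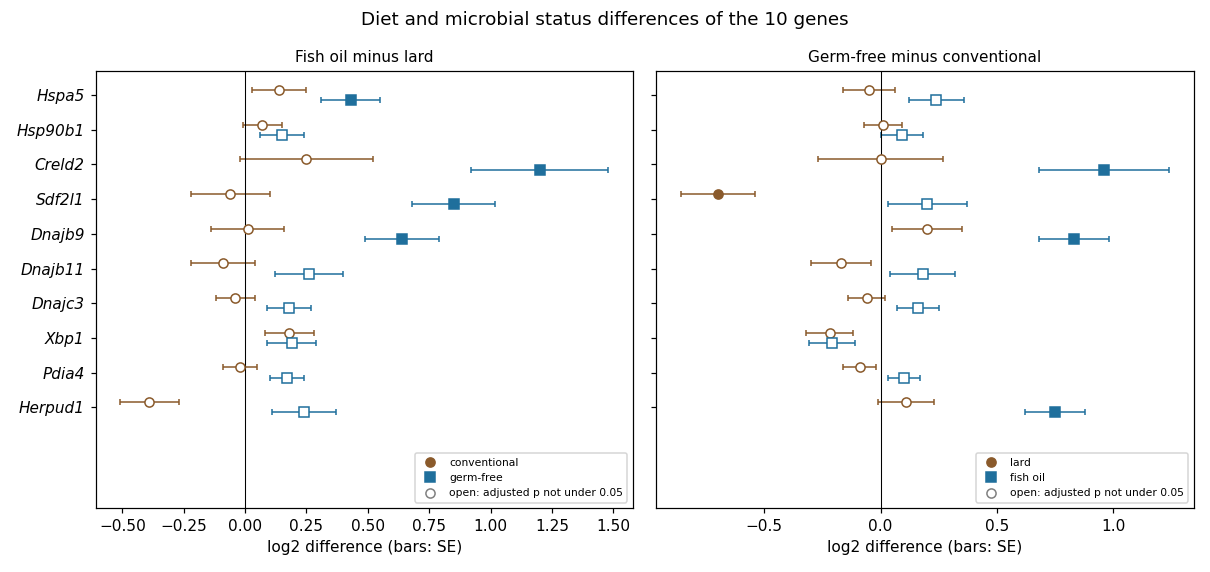
Log2 differences of the 10 genes with SE as bars: fish oil minus lard in conventional and germ-free mice on the left, germ-free minus conventional on lard and fish oil on the right; filled symbols have an adjusted p under 0.05. The filled symbols are 4 for diet in germ-free mice, 3 for status on fish oil and 1, Sdf2l1 at -0.70, for status on lard.

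A few livers stood apart from their groups for several of the genes together. Fish oil conventional mice 5 and 6 had Creld2 at 11.37 and 11.42, against 9.90 to 10.38 in the other 4, and Hspa5 at 13.07 and 13.18, against 12.44 to 12.77. The same mice had the acute phase gene Saa1 at 11.64 and 10.81, against 6.03 to 7.61 in the rest of the group. Lard germ-free mouse 6 had the highest Hspa5, Creld2, Sdf2l1, Dnajb9 and Herpud1 of its group (12.91, 11.30, 10.77, 11.85 and 13.02), with Saa1 at 7.25, near the low end of its group's range of 7.23 to 8.75. Fish oil germ-free mouse 6, and mice 3 and 4 as 1 sample, had the highest Creld2 of their group, with Saa1 at 7.12 and 7.91. Saa1 was thus high in the first pair of mice and between 7.12 and 7.91 in the others; its part in the levels was not tested.

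The clock index, Dbp minus Arntl, which marks the phase of the day-night cycle, also varied. It ran from 1.96 to 4.33 in lard conventional, -2.04 to 3.66 in fish oil conventional, 3.60 to 4.59 in lard germ-free and -0.77 to 4.09 in fish oil germ-free livers. Fish oil germ-free mice 3 and 4 (4.09) and mouse 6 (-0.77) held the highest Creld2 of their group and lay at its opposite ends of the index. With the index as a covariate Creld2, Sdf2l1 and Dnajb9 were still called for diet in germ-free mice, and Creld2, Dnajb9 and Herpud1 for status on fish oil. Hspa5 lost its diet call in germ-free mice (adjusted p = 0.0812, limma), and Sdf2l1 its status call on lard (adjusted p = 0.0575). Of the other pathway genes called for diet in germ-free mice, Manf, Creb3l2, Hyou1, Atf4, Ssr2 and Fkbp2 lost that call with the index. Syvn1, Ern1, Ddit3, Ppp1r15a, Ddit4 and Kdelr3 kept it. The mean of the index was 2.93 on lard and 0.14 on fish oil in conventional livers, and 4.22 and 2.07 in germ-free livers. The index thus varied with diet, so these fits cannot separate the 2, and its part in the levels was not tested.

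Within groups the 10 genes varied together to different degrees. The deviations of each gene from its group means were set against the mean deviation of the other 9 over the 23 samples, which share array and RNA. The correlation was 0.930 for Hspa5 and 0.905 for Creld2, lay between 0.490 and 0.776 for 7 genes, and was 0.422 for Pdia4. Outside the 10, the genes most like their mean deviation were Syvn1 (0.923), Hyou1 (0.892), Ficd (0.878), Manf (0.852), Ccdc134 (0.834) and Creb3l2 (0.823) over the same 23 samples, of 19928 candidates. Syvn1 encodes the HRD1 ubiquitin ligase, Hyou1 an ER relative of Hsp70, Ficd the enzyme that adds AMP to BiP, Manf a small ER protein that can be secreted and Creb3l2 a factor held in the ER membrane.

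For diet in germ-free mice 6 of these 6 genes were higher, against 4.58% of all genes higher and 13.2% in either direction. The likeness used deviations from the group means and not this difference. The 6 genes were picked for varying with the 10 in the same livers, so their calls are no independent result. Syvn1 was at 10.56, 10.35, 11.24, 10.33 and 11.06 on fish oil, against 9.40 to 10.43 on lard (median 9.48), and only lard mouse 6 reached the fish oil range. Syvn1 was 2.03-fold higher (1.02 ± 0.20, adjusted p = 0.00124), Manf 1.58-fold (0.66 ± 0.16, adjusted p = 0.00768) and Creb3l2 1.59-fold (0.67 ± 0.18, adjusted p = 0.0125). Syvn1 was called in all 37 alternatives, Manf in 36 and Creb3l2 in 35. The Manf call was lost with the clock covariate. That of Creb3l2 was lost with the clock covariate and without germ-free mice 5 and 6 of both diets. Hyou1 was higher by 0.59 ± 0.19 on the log2 scale (adjusted p = 0.0446, called in 21 of 37 alternatives), Ficd 1.38-fold (0.46 ± 0.12, adjusted p = 0.00895) and Ccdc134 1.29-fold (0.37 ± 0.11, adjusted p = 0.0236). In conventional mice 0 of the 6 passed for diet.

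**Figure D5:**
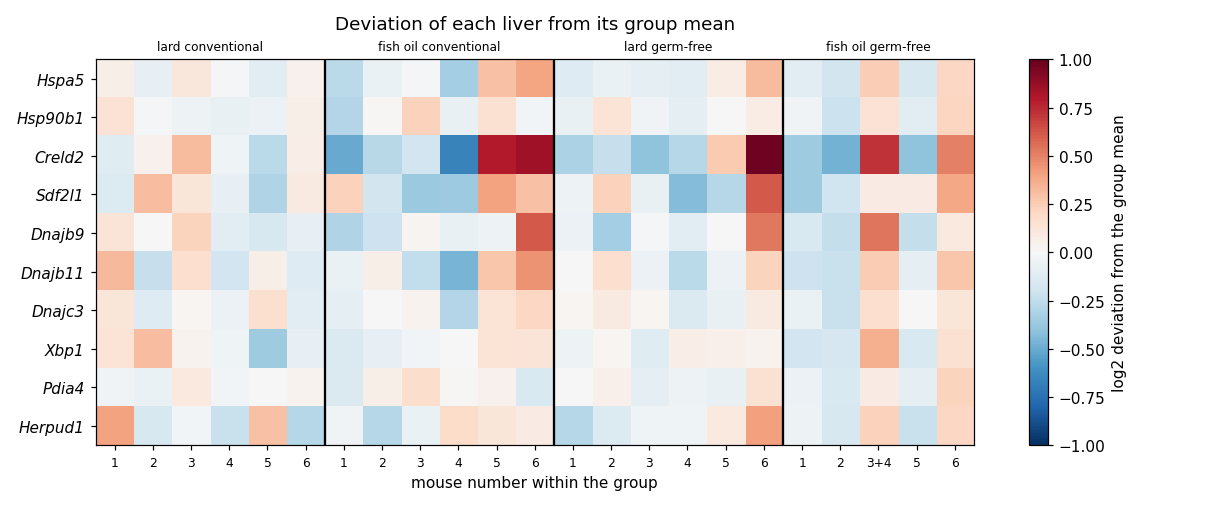
Deviation of each liver from its group mean (log2, colour scale from -1 to 1) for the 10 genes in rows, with the mice of each group in columns. Creld2 shows the widest spread, and 10 of 10 genes lie above 0 in lard germ-free mouse 6 and in fish oil germ-free mouse 6 and mice 3 and 4, 9 in fish oil conventional mouse 5, and 8 in fish oil conventional mouse 6 and lard conventional mouse 3.

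The rest of the pathway was followed through 78 other measured genes, in lists for ER folding, ER-associated degradation, translocation and early secretion, the sensors, and the PERK and ATF4 arm. For diet in germ-free mice 9 of 78 (11.5%) were higher and 3 lower, with a median of 0.06, against 4.58% of all genes higher and 8.59% lower. In either direction 15.4% of the 78 were called, near the 13.2% of all genes. Of the sensors, Ern1, which encodes IRE1, was 1.52-fold higher (0.60 ± 0.14, adjusted p = 0.00472, called in 36 of 37 alternatives). That call was lost without germ-free mice 5 and 6 of both diets (adjusted p = 0.0516, limma). Of 14 genes of the PERK and ATF4 arm, 3 were higher and 1 lower. Those 3 were Ppp1r15a, a phosphatase subunit that restores translation (0.58 ± 0.09, adjusted p = 0.000153), Ddit3, which encodes CHOP (0.56 ± 0.11, adjusted p = 0.000901), and Atf4 (0.38 ± 0.12, adjusted p = 0.043, called in 27 of 37 alternatives), while Ddit4, an inhibitor of mTOR signalling, fell by 0.50 on the log2 scale (adjusted p = 0.00339). Of 20 other folding genes Manf and Hyou1 were higher and the prolyl isomerase gene Fkbp2 lower (-0.27 ± 0.07, adjusted p = 0.0176). Of 21 translocation and secretion genes Ssr2, a subunit of the translocon-associated complex, was higher (0.29 ± 0.09, called in 29 of 37 alternatives) and Kdelr3, a receptor that returns ER proteins, lower (-0.47 ± 0.10). Of 14 degradation genes Syvn1 was higher and 0 lower.

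For diet in conventional mice 0 of these 78 were higher (limma; 3 had an unadjusted p below 0.05) and 2 lower, namely Fkbp2 (-0.30 ± 0.07, adjusted p = 0.0434) and Derl2, a channel component of degradation (-0.42 ± 0.10, adjusted p = 0.0496), against 0.602% of all genes lower. Fkbp2 was called in 19 of 37 alternatives (adjusted p from 0.0242 to 0.232) and Derl2 in 12 (0.0171 to 0.26). Both calls were lost with the clock covariate, with only those groups in the fit, and without fish oil conventional mouse 2, 5 or 6 or lard conventional mouse 1, 3, 4, 5 or 6. For germ-free status on lard 0 were higher (3 had an unadjusted p below 0.05) and 1 lower, the disulfide isomerase gene Pdia6 (-0.39 ± 0.10, adjusted p = 0.0405, called in 26 of 37 alternatives), against 0.687% of all genes lower. For status on fish oil 8 of 78 (10.3%) were higher and 0 lower (5 lower at an unadjusted p under 0.05), with a median of 0.02, against 3.01% of all genes higher, 3.89% lower and 6.91% in either direction. They were Eif2ak3, which encodes PERK (0.45 ± 0.12), the stress factors Ddit3 (0.63 ± 0.11) and Atf3 (0.96 ± 0.27), Ppp1r15a (0.33 ± 0.09), the degradation genes Edem3 (0.31 ± 0.09) and Herpud2 (0.31 ± 0.08), and the folding genes Txndc11 (0.44 ± 0.11) and Creld1 (0.25 ± 0.07), with adjusted p from 0.000891 to 0.045. Of these, Ddit3 was called in all 37 alternatives, Herpud2 in 36, Txndc11 in 35, Atf3 in 31, Eif2ak3 in 30, Ppp1r15a in 29, Edem3 in 27 and Creld1 in 18. The diet effects differed for 1 of 78, Ppp1r15a (0.53 ± 0.12, adjusted p = 0.049), called in 15 of 36 alternatives, against 0.216% of all genes higher.

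Chaperones outside the ER were also called in the same 2 comparisons. Of 13 cytosolic and mitochondrial chaperone genes, 6 were higher and 0 lower for diet in germ-free mice, with a median of 0.35, against 4.58% of all genes higher. For status on fish oil 8 were higher and 0 lower, with a median of 0.50, against 3.01% of all genes higher. Hspa1a, a stress-induced cytosolic Hsp70, was 3.04-fold and 4.08-fold higher (1.60 ± 0.15 and 2.03 ± 0.15), and Dnajb1, its J-domain partner, 2.45-fold and 3.92-fold (1.29 ± 0.19 and 1.97 ± 0.19). For diet in conventional mice 0 of the 13 passed in limma, and 0 had an unadjusted p below 0.05, while for status on lard 1, Hspa1a, was higher (0.55 ± 0.15, adjusted p = 0.0498, called in 17 of 37 alternatives). The diet effects differed for 3 of the 13, against 0.216% of all genes called higher and 0 of the 10 ER genes. Those 3 were Hspa1a (1.48 ± 0.21, adjusted p = 0.00347), Dnajb1 (1.53 ± 0.26, adjusted p = 0.00905) and Bag3 (1.12 ± 0.21, adjusted p = 0.0216). The median of this difference was 0.33 for the 13 and 0.32 for the 10, and the contrast between the lists was not itself tested.

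Marker genes of the cells a liver sample could hold were read in the same livers. The 9 hepatocyte markers had a mean of 13.38 to 13.69 in every group and 0 of 9 were called in any comparison, so the defining markers of the labelled tissue were present throughout. The 9 pancreatic acinar markers lay between 5.86 and 6.26 in mean, and 0 of 9 were called. The plasma and B cell markers lay between 5.79 and 6.07, and 1 of 9, Jchain, was called. Jchain was higher both for diet in germ-free mice (0.58 ± 0.10) and for germ-free status on fish oil (1.00 ± 0.10) and lard (0.40 ± 0.10). The list did not follow it. Of the 9, 4 lay above 0 for diet in germ-free mice (median -0.03), 3 for status on fish oil (median -0.09) and 4 on lard (median -0.01). Of 10 macrophage and Kupffer cell markers 7 were lower in germ-free mice on fish oil and 3 on lard, with a mean of 8.35 to 9.23 in germ-free and 9.05 to 10.07 in conventional livers. For diet in germ-free mice 1 of those 10, Clec4f, was higher (0.40 ± 0.13, called in 17 of 37 alternatives). The 10 neutrophil markers lay between 5.28 and 5.98 in mean, and 1, Csf3r, was lower in germ-free mice on fish oil (-0.39 ± 0.11). Of 6 cholangiocyte markers 4 (Epcam, Krt19, Krt7 and Muc1) were lower on fish oil in germ-free mice, where the mean ran from 6.30 to 6.41 on fish oil and from 6.59 to 6.82 on lard. On lard Epcam was higher in germ-free mice (0.54 ± 0.11), on fish oil Muc1 was lower in them (-0.39 ± 0.10), and Cftr lay below the 25th percentile of every array. The part of Jchain, the macrophage markers and the cholangiocyte markers in the differences of the 10 genes was not tested.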

How the data were processed

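Liver RNA of 24 mice in 4 groups was measured on single-colour arrays. The authors deposited log2 signals summarised per gene by RMA, per the file headers, which name Expression Console with apt engine version 1.1.2800.28061 and library r4; the sources used here name no genome build for the array. RMA equalises the distribution of probe signals between arrays, so the size of a shift shared by most genes cannot be read from these values. The summarised values kept small differences between arrays, with the medians given below. The 2 deposited log2 tables agreed to within 0.005.

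Of 35556 probe sets, 21789 carried 1 symbol, 1621 several and 12146 none listed; 21698 found a current symbol through their Entrez ID, and 999 genes had over 1 probe set. Array medians lay between 6.445 and 6.623, and 0 per-sample columns were left unused. Groups were fitted in R 4.3.3 with limma 3.58.1 (lmFit, then eBayes, on 4 group means over 23 samples), 5 contrasts were taken, and p-values (two-sided) were given the Benjamini-Hochberg adjustment over 19938 genes within each, with calls at an adjusted p under 0.05. The test was checked on simulated data. The p-values set a difference against the variation between samples, taken as independent. The labels do not say whether mice shared litters or cages, so this could not be checked, and the p-values could be too small.

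Named were all 10 genes, their further probe sets, the called genes of lowest p (at most 3) per pathway list and comparison, Dbp, Arntl and the 6 genes most like the members; marker genes, the cytosolic chaperones and Saa1 were named with them after values were seen. The members and the lists were chosen with earlier results of these data known. The labels do not say that mouse numbers pair mice across groups, so the fit had no block for them. Promoter windows are RefSeq's on GRCm38.p6. Alternatives covered probe sets, scaling, variance, array weights, samples in the fit, a clock index, the other table and each mouse left out; those added after seeing the data left out mice that stood apart and fitted each probe set alone. A planned look at the last residues of the proteins was not made.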

Additional observations from a re-analysis of the deposited data

Results flagged for a closer look

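Of 40 groups of values (10 genes in 4 groups) tested for a distant sample, 1 held one: Dnajb9 in fish oil conventional mouse 6, at 11.76, lay far above the rest of its group (10.84 to 11.17). Chance gives about 1 in 20 such groups, so this number is not above it.

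The diet effects of germ-free and conventional mice differed, by the fitted difference of the effects, for the second Pdia4 probe set (1.03 on the log2 scale) and for Ppp1r15a (0.53). They also differed for the cytosolic chaperone genes Hspa1a (1.48), Dnajb1 (1.53) and Bag3 (1.12), and for Jchain (0.59). Jchain was 1 of 9 plasma and B cell markers, whose median for this difference was -0.09. Over the alternatives Hspa1a and Dnajb1 were called in 36 of 36, Bag3 in 35, Ppp1r15a in 15 and Jchain in 12 of 35. For the cholangiocyte markers Krt19 and Muc1 the difference was negative (-0.50 and -0.59), with diet effects lower in germ-free mice, and called in 20 and 13 of 35.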

How the results depend on the processing

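The alternatives kept 5 calls throughout: for diet in germ-free mice Creld2, Sdf2l1 and Dnajb9 passed in all 37, and for status on fish oil Herpud1 and Dnajb9 did, the remaining calls being those named with their losses in the report. Leaving out each mouse gave counts of 0 for diet in conventional mice, 3 to 4 for diet in germ-free mice, 0 to 1 for status on lard, 2 to 3 for status on fish oil and 0 to 2 for the difference between the diet effects. For status on lard the count was 0 with the clock index. For the difference between the diet effects it was 1 (Sdf2l1) with the 24 arrays as separate samples, with equal array medians and with the clock index, 1 (Pdia4) with probe sets averaged per gene, and 3 without fish oil conventional mice 5 and 6. The replicate block with 24 arrays gave 1 (Sdf2l1, 0.92) for that difference and changed no other count. The cause of these shifts was not tested. Same-numbered mice correlated from 0.039 to 0.427 between the germ-free groups, with 4 of 6 above 0.1. Between the groups of the other comparisons they correlated from -0.403 to 0.184. Germ-free mice 5 and 6 of both diets had an upper quartile of array signal of 8.42 to 8.44. In the other germ-free mice it was 8.51 to 8.57. Whether same-numbered germ-free mice shared a pairing or handling was not tested.

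Signs turned in uncalled differences near 0. For diet in conventional mice Pdia4 was 0.06 (mean of probe sets), Dnajc3 0.0054 (second quantile normalization) and Dnajb9 -0.01 (equal medians) and -0.05 (array weights). Without fish oil conventional mice 5 and 6, Creld2 was -0.16, Dnajb9 -0.13, Hspa5 -0.03 and Pdia4 0.0077. For status on lard Creld2 was -0.0055 (equal medians), -0.01 (second quantile) and -0.12 (array weights), and Hsp90b1 -0.0045, -0.0039 and, with the clock index, -0.0083. Without germ-free mice 5 and 6 Creld2 was -0.31, Herpud1 -0.02 and Hsp90b1 -0.01. The diet effects of Xbp1 differed by -0.01 with array weights. With each mouse left out, diet in conventional mice ran from -0.05 to 0.01 for Pdia4, -0.14 to 0.01 for Sdf2l1, -0.18 to 0.0041 for Dnajb11, -0.08 to 0.02 for Dnajc3 and -0.11 to 0.07 for Dnajb9; status on lard from -0.19 to 0.09 for Creld2 and -0.02 to 0.03 for Hsp90b1; and the Xbp1 difference from -0.08 to 0.08.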
